A study of Mus musculus with 27 samples.

Results

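Hepatic mRNA was compared between mice fed a 60% fructose diet and mice fed the AIN-93M purified diet, the control diet of a study of 9 diets. The members of the comparison are all detected genes, that is genes with a probe set whose mean signal exceeded log2(100), or 6.64, in either of the 2 groups. This left 5976 of the 6478 genes that reached that level with any of the 9 diets. Of these, 5666 were detected in both groups, 97 in the high-fructose group alone and 213 in the control group alone. The gene nearest the limit inside it was Noct, at 6.645 in the higher group, and the nearest outside was Trrap, at 6.644.

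Both groups were male C57BL/6 mice that entered at 10 weeks of age and ate their diet for 3 weeks, with 3 mice and 1 Affymetrix array of liver RNA per mouse and group. The mice were killed in the morning without a fast. Per the study's methods, the fructose diet replaced nearly all starch and sucrose of the control diet and also held more saturated fat and protein and less polyunsaturated fat. The effect of fructose itself cannot be told apart from those differences. Values are log2 signals after GCRMA normalization, on which 1 unit is a 2-fold difference, and each value below is listed in the order of array 1, 2 and 3 of its group.

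Fructose enters the hepatocyte and is phosphorylated by ketohexokinase, past the main control point of glycolysis, so that the liver turns it into trioses. These supply pyruvate, citrate and glycerol 3-phosphate, from which fatty acids and triglycerides are built with NADPH from the pentose phosphate pathway and malic enzyme. The liver also makes most plasma proteins, among them lipoproteins, complement, coagulation factors and the acute phase proteins that follow inflammatory signals.

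Of the 5976 detected genes, 241 (4.03%) differed from control at an adjusted p of 0.05 in limma, with the adjustment made over all genes and all 8 diet comparisons together. Of these, 73 genes (1.22%) rose and 168 (2.81%) fell. Those detected in both groups numbered 204, with 67 higher and 137 lower. A further 6 were detected in the high-fructose group alone and 31 in the control group alone. These entered the comparison only through the group where they were high. The split into 73 and 168 depended on scaling, because the median difference over all detected genes was -0.04. Centring each array on its median gave 130 higher and 102 lower genes, and a further quantile normalization gave 130 higher and 117 lower. Adjustment within this comparison alone left 36 genes (0.602%), 10 higher and 26 lower, and the unadjusted p was below 0.05 for 983. A fit of the 6 arrays alone called 2 genes, Lbp and Serpina4-ps1, both lower, and neither was among the 241. Differences were mostly small, with a median of 0.49 among the genes that rose and -0.60 among those that fell, while 7 genes rose and 23 fell by more than 1 log2 unit. The arrays of the 2 groups did not overlap for 1513 detected genes (25.3%), with high fructose above control for 583 (9.76%) and below for 930 (15.6%). Of the 241 genes past the test, 68 were read by more than 1 probe set, and in 66 of these all probe sets differed in the same direction.

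**Figure D1:**
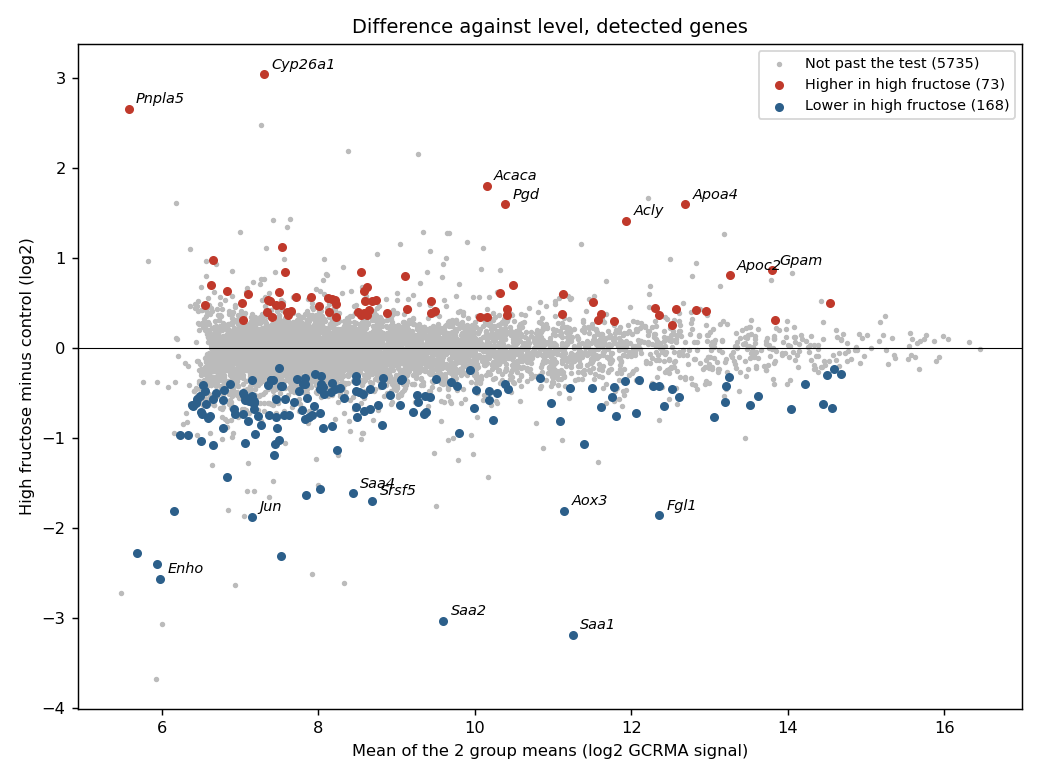
Each point is 1 of the 5976 detected genes, with the mean of both group means on the x axis (log2 GCRMA signal) and the difference, high fructose minus control, on the y axis (log2). Red marks the 73 genes that rose and blue the 168 that fell, and lipid synthesis genes such as Acaca and Acly stand among the largest increases while Saa1 and Saa2 have the largest decreases among the genes past the test.

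Some measures of array quality overlapped between the 2 groups and others did not. The 3 prime to 5 prime signal difference of Gapdh, a sign of RNA integrity, was 1.06 to 1.22 with high fructose and 1.04 to 1.38 in the controls, and that of Actb was 3.18 to 3.27 against 3.08 to 3.60. The median signal of detected probe sets was 8.23 to 8.30 against 8.31 to 8.34, so the high-fructose arrays were slightly dimmer, and 35.8 to 36.1% against 36.6 to 37.1% of probe sets stood at the lowest value. The array's own probe sets for 18S rRNA were lower with high fructose. The 3 prime set measured 9.92, 11.66 and 11.94 with high fructose and 12.68, 12.87 and 13.46 in the controls, a difference of -1.83 (adjusted p = 0.005 in limma at the probe set level). The middle and 5 prime sets differed by -1.78 and -0.97 (adjusted p = 0.0058 and 0.0069), also with no overlap, and high-fructose array 1 was the lowest on all 3. On the 3 prime set the high-fat arrays lay at 9.50 to 9.71 and those of the other 6 diets at 11.59 to 13.54. The part of this in the differences below was not tested, and without high-fructose array 1 the test was passed by 131 genes. The summed signal of 8 hepatocyte markers, among them Alb and Ttr, was 282576 to 290268 against 276267 to 284090. Most of the 35 measured T and NK cell, B cell, neutrophil, cholangiocyte and adipocyte markers were not detected, so the test could not decide on them. The T and NK cell, neutrophil and adipocyte lists held 0 detected genes, and Cd3e, Cd79a and Adipoq lay near the lowest value of the arrays. The B cell and cholangiocyte lists held 1 detected gene each, Ighm and Onecut1, and neither passed the test. Onecut1, a factor that hepatocytes also express, measured 4.606, 4.204 and 4.577 with high fructose and 7.88, 6.76 and 7.95 in the controls. The groups did not overlap and all high-fructose arrays were below the detection level, at least 1.85-fold lower. Onecut1 did not pass the test (adjusted p = 0.1). In whole liver, fewer cells of a type and less RNA per cell cannot be told apart. Of 51 genes named by rule and past the test, 15 stayed past it in each of the 6 fits that left out 1 array. These were Adgrv1, Aox3, Apoa4, Apoc2, Crkl, Crot, Csrp3, Cyc1, Hectd2os, Ndufa12, Pgam1, Pgrmc2, Pik3r1, Pnpla5 and Srsf5. The other 36 lost the call without at least 1 array, named below beside each gene or list.

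Genes of fatty acid synthesis were among the largest increases. Of 19 detected genes of this pathway, 2 rose (10.5%, against 1.22% of all detected genes) and 0 fell, and the median difference was 0.52, against -0.04 over all detected genes. Acaca, acetyl-CoA carboxylase, makes the malonyl-CoA from which the fatty acid chain is built. It measured 11.13, 10.76 and 11.28 with high fructose and 8.75, 9.23 and 9.78 in the controls. All high-fructose arrays were above all control arrays, and the mean rose to 349% of control, 95% interval 159.9 to 763%, adjusted p = 0.038. Acly, ATP citrate lyase, makes cytosolic acetyl-CoA from citrate. Its signal was 12.71, 12.43 and 12.78 with high fructose and 10.61, 11.04 and 12.02 in the controls. The groups did not overlap, although control array 3 came near the high-fructose arrays, and the mean rose to 267% of control, 95% interval 145 to 490.0%, adjusted p = 0.037.

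Several other enzymes of the pathway were higher in every high-fructose array but did not pass the test. Fasn, fatty acid synthase, measured 13.32, 13.13 and 13.45 with high fructose and 11.74, 12.33 and 12.98 in the controls. Control array 1 was the lowest and control array 3 the highest of the controls, by more than 1 log2 unit, and the difference was 193% of control, 95% interval 72.0 to 517%, adjusted p = 0.44. Elovl6, which lengthens palmitate, showed the same order of controls with 7.89, 8.71 and 9.50, against 9.98, 9.78 and 10.18 with high fructose (244% of control, 95% interval 97.7 to 608%, adjusted p = 0.23). Scd1, the delta-9 desaturase that makes oleate, was at 178% of control, adjusted p = 0.078. Acacb, the carboxylase isoform at the mitochondrial membrane, was at 217% of control, adjusted p = 0.11, and Elovl5 and Fads2, which act on polyunsaturated fatty acids, were at 144% of control, adjusted p = 0.18 and 148% of control, adjusted p = 0.19. Thrsp, the Spot14 regulator of lipogenesis, had 1 low control array with 12.30, 13.97 and 13.92, against 14.00, 14.32 and 14.15 with high fructose (169% of control, adjusted p = 0.46). In all, 11 of the 19 genes were higher in every high-fructose array than in any control array and 1 was lower, against 9.76% and 15.6% of all detected genes.

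The spread lay in the controls. The median SD over these 19 genes was 0.46 in the controls and 0.16 with high fructose, whereas over all detected genes it was 0.14 in both. The mean log2 signal of the 19 genes was 11.50, 11.52 and 11.60 in the high-fructose arrays and 10.55, 11.05 and 11.38 in the controls. All high-fructose arrays were therefore above all controls in this mean, and the gap to control array 3 was small. None of the 19 genes passed the test upward without control array 1, without control array 2 or without any 1 of the high-fructose arrays, and 4 did without control array 3.

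Among the transcription factors of the pathway, Srebf1, which encodes the sterol regulatory element-binding protein that drives lipogenic genes, measured 11.45, 12.02 and 11.34 with high fructose and 11.48, 11.62 and 11.87 in the controls. The groups overlapped, at 96.4% of control, 95% interval 60.4 to 154%, adjusted p = 0.95. Mlxipl, the carbohydrate-response factor ChREBP, measured 9.93, 9.86 and 9.59 with high fructose and 9.71, 9.22 and 9.70 in the controls. It overlapped as well, at 119% of control, 95% interval 84.8 to 167%, adjusted p = 0.57. Of 9 detected genes of the carbohydrate-responsive list, 0 passed the test and the median difference was -0.12.

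NADPH supply and lipid assembly followed with 1 gene each. Pgd, the second dehydrogenase of the pentose phosphate pathway, measured 11.30, 10.79 and 11.46 with high fructose and 8.95, 9.68 and 10.15 in the controls. High-fructose arrays were all above the controls and the mean rose to 302% of control, 95% interval 158 to 575%, adjusted p = 0.026, with 4 probe sets that differed by 1.53 to 1.64. Without control array 1 or 2 or high-fructose array 1 or 3, Pgd did not pass. Me1, the cytosolic malic enzyme, measured 13.15, 12.95 and 13.03 with high fructose and 10.50, 11.54 and 12.10 in the controls. The groups did not overlap, but control array 1 lay far below the other controls, and at 316% of control, 95% interval 135 to 743%, adjusted p = 0.082 Me1 did not pass the test. Of 11 detected genes of the pentose phosphate and NADPH list, 1 rose (9.09%, against 1.22% of all detected genes) and 0 fell. The transketolase gene Tkt was at 137% of control, adjusted p = 0.18.

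Gpam, the mitochondrial acyltransferase that starts triglyceride synthesis, measured 14.47, 14.06 and 14.17 with high fructose and 13.26, 13.02 and 13.82 in the controls. It was higher in every high-fructose array and rose to 182% of control, 95% interval 124 to 268%, adjusted p = 0.045. Of 15 detected genes in the glycerolipid list it was the 1 past the test (6.67%, against 1.22% of all detected genes). Gpam passed without control array 3 and in no other fit that left out 1 array. Pnpla5, a patatin-like lipase of lipid droplets, measured 6.55, 6.73 and 7.44 with high fructose and 2.77, 4.32 and 5.65 in the controls. All controls lay below the detection level, so the increase was given as a bound, at least 1.20-fold over that level (adjusted p = 0.0042). Its relative Pnpla3, adiponutrin, measured 7.01, 6.52 and 6.33 with high fructose and 2.94, 3.12 and 6.11 in the controls and was not a member, since its high-fructose mean stayed just under the detection level. The lipid droplet and lipolysis list held 16 detected genes, of which 0 passed the test.

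**Figure D2:**
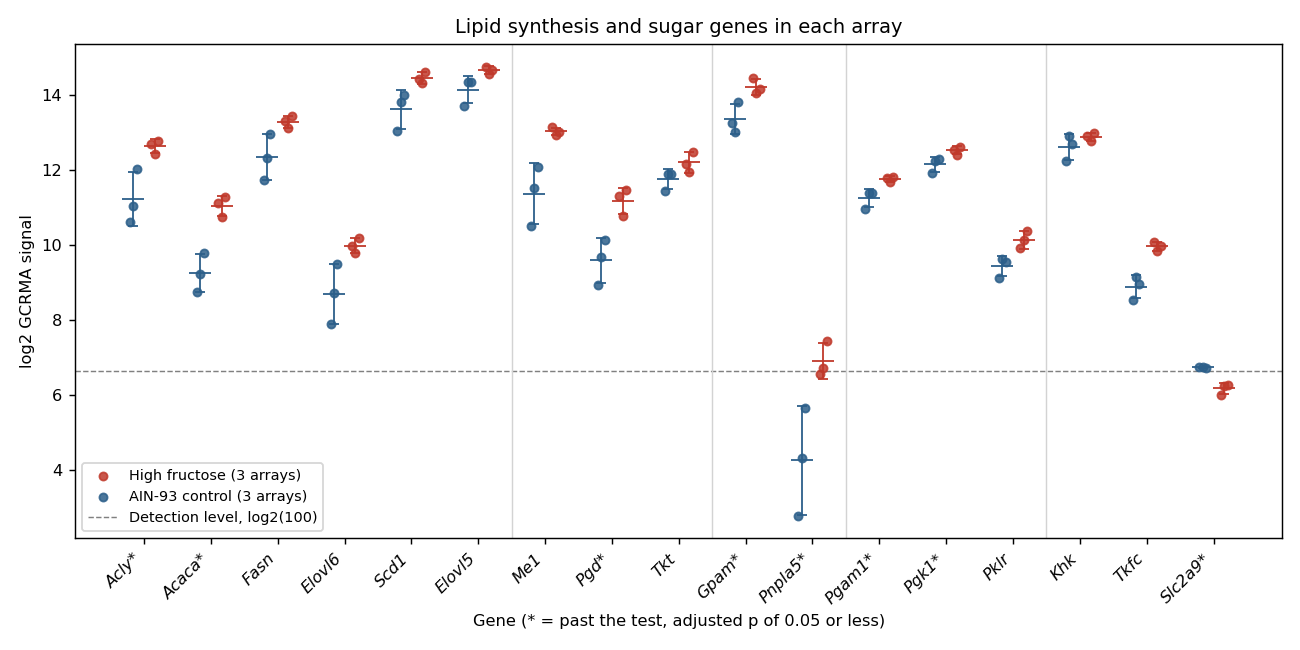
Log2 GCRMA signal of 17 lipid synthesis and sugar genes, with a point for each of the 3 high-fructose arrays (red) and 3 control arrays (blue), a bar at the group mean and error bars of 1 SD. The red points lie above the blue ones for Acly, Acaca, Fasn, Elovl6, Me1 and Pgd, with the controls of these genes spread over 1 log2 unit or more, while Khk overlaps and Slc2a9 is lower.

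Genes of sugar uptake and breakdown moved less. Of 13 detected genes of glycolysis 2 rose (15.4%, against 1.22% of all detected genes) and 0 fell, and 12 of 13 had a positive difference, with a median of 0.27. Pgam1, phosphoglycerate mutase, measured 11.78, 11.68 and 11.83 with high fructose and 10.98, 11.38 and 11.40 in the controls. Its high-fructose arrays were close together and all above the controls, and it rose to 143% of control, 95% interval 122 to 167%, adjusted p = 0.0044. Pgk1, phosphoglycerate kinase, measured 12.55, 12.42 and 12.63 with high fructose and 11.93, 12.26 and 12.30 in the controls. The groups were separated by a small gap, and Pgk1 rose to 129% of control, 95% interval 112 to 149%, adjusted p = 0.02. It did not pass without control array 1 or high-fructose array 1 or 3. Pklr, the liver pyruvate kinase, was higher in every high-fructose array, at 163% of control, 95% interval 82.9 to 321%, adjusted p = 0.39, and did not pass. Pdk4, a kinase that shuts pyruvate dehydrogenase, was at 269.8% of control, adjusted p = 0.18 and was named after its values were seen.

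Of 6 detected genes of fructose uptake and fructolysis, 0 rose and 1 fell (16.7%, against 2.81% of all detected genes). Khk, ketohexokinase, which starts fructolysis, measured 12.92, 12.78 and 12.996 with high fructose and 12.24, 12.93 and 12.71 in the controls. The groups overlapped, and the interval of Khk, 85.8 to 170.1% of control (adjusted p = 0.53), included no change. Tkfc, the triokinase that phosphorylates glyceraldehyde, measured 10.08, 9.84 and 9.97 with high fructose and 8.55, 9.15 and 8.96 in the controls. These were above all 24 arrays of the other diets, at 212% of control, 95% interval 116 to 385%, adjusted p = 0.11, which did not pass. Slc2a2, the GLUT2 transporter, was at 84.9% of control, adjusted p = 0.57. Slc2a9, a urate transporter of the hexose transporter family, measured 6.00, 6.24 and 6.27 with high fructose and 6.74, 6.75 and 6.73 in the controls, and fell below the detection level in all high-fructose arrays, at least 1.07-fold lower (adjusted p = 0.016), a call lost without high-fructose array 1. Slc2a5, the GLUT5 fructose transporter, stayed at or below 2.66 in all 6 arrays, near their lowest value. G6pc, glucose 6-phosphatase, was at 118% of control, adjusted p = 0.75, and 0 of 15 detected gluconeogenesis and glycogen genes passed the test.

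The 4 genes of fatty acid synthesis and glycolysis that rose were looked up among RefSeq promoters of GRCm38.p6, and all 4 were found. The window from 250 bases before to 50 after the start was searched on both strands for CACGTG, the core of E-boxes, CCAAT, the NF-Y box, TCACNCCAC, a sterol regulatory element, and GGGCGG, the GC box. These letters occur in 7.15%, 37.4%, 1.24% and 35.7% of 32851 promoters. The windows of Acly, Pgam1 and Pgk1 lie at the outer start of the gene, while that of Acaca lies at a start inside the annotated gene, so its outer promoter was not searched. CACGTG and TCACNCCAC were in none of the 4 windows, and the Acaca window held none of the 4 motifs. The 250 bases before the start are shown for the genes with a match there, 5′ to 3′ in the direction of the gene, with matches to CCAAT or GGGCGG in capitals and a match on the other strand reading CCGCCC.
Acly (chr11:100528001-100528250, minus strand): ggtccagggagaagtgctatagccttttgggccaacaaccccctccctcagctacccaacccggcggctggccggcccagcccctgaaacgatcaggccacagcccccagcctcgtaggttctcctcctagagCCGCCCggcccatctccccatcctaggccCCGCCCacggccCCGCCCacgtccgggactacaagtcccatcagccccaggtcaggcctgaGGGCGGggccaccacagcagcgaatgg
Pgk1 (chrX:106186850-106187099, plus strand): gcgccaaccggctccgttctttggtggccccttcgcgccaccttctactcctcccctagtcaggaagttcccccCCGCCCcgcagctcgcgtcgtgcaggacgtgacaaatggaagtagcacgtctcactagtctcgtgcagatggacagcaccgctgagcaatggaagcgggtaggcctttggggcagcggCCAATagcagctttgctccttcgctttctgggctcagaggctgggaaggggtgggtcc
Acly holds 4 GC boxes before its start, between -117 and -27, and Pgk1 holds 1 GC box at -176 and a CCAAT box at -58. Past the start, Acly holds a CCAAT box at 38 and Pgk1 holds GC boxes at 3, 15, 27 and 32. Pgam1 holds GC boxes past its start alone. GC boxes and CCAAT boxes are common in all promoters, and a match is a description of the letters, not of binding.

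Lipoprotein genes rose in 2 of 26 detected cases (7.69%, against 1.22% of all detected genes) and fell in 0. Apoa4, an apolipoprotein of triglyceride-rich particles and high-density lipoprotein, measured 13.89, 12.75 and 13.82 with high fructose and 11.42, 12.54 and 11.69 in the controls. High-fructose array 2 was close to control array 2 and the other arrays were far apart, and Apoa4 rose to 303% of control, 95% interval 177 to 519.9%, adjusted p = 0.008. Apoc2, the cofactor of lipoprotein lipase, measured 13.68, 13.41 and 13.88 with high fructose and 12.68, 12.91 and 12.96 in the controls. It rose to 175% of control, 95% interval 134 to 229%, adjusted p = 0.0075 with no overlap.

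No gene of cholesterol synthesis passed the test, while 3 bile acid genes fell. Of 20 detected genes of cholesterol synthesis, 0 passed the test in limma, with a median difference of 0.11. Cyp7a1, the rate-limiting enzyme of bile acid synthesis, measured 5.33, 7.44 and 5.59 with high fructose and 8.20, 9.21 and 6.54 in the controls. High-fructose array 2 was above control array 3, so the groups overlapped, and at 27.5% of control, 95% interval 8.37 to 90.2%, adjusted p = 0.17 the gene did not pass the test. Cyp8b1, which sets the share of cholic acid, was at 137% of control, 95% interval 76.2 to 247%, adjusted p = 0.55 with no overlap between groups. Of 29 detected bile acid genes, 0 rose and 3 fell (10.3%, against 2.81% of all detected genes). Slco1a4, an organic anion transporter of the sinusoidal membrane, measured 4.32, 5.28 and 4.03 with high fructose and 7.31, 7.08 and 6.07 in the controls. All high-fructose arrays were below the detection level, at least 1.13-fold lower (adjusted p = 0.014). Baat, which conjugates bile acids with taurine or glycine, fell to 74.8% of control, 95% interval 62.7 to 89.3%, adjusted p = 0.034, and Akr1c6, a hydroxysteroid dehydrogenase, fell to 81.6% of control, 95% interval 72.1 to 92.4%, adjusted p = 0.035. All 3 calls were lost without control array 1, control array 2 or high-fructose array 3, that of Baat also without high-fructose array 1 and that of Akr1c6 also without control array 3.

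Fatty acid oxidation genes did not move as a group. Of 28 detected mitochondrial genes, 0 passed the test, and Cpt1a, the carnitine palmitoyltransferase that admits fatty acids to mitochondria, was at 76.9% of control, 95% interval 53.3 to 111%, adjusted p = 0.39. In the peroxisomal and omega-oxidation list, 1 of 29 rose and 1 fell (3.45% each, against 1.22% and 2.81% of all detected genes). Abcd3, a peroxisomal transporter of fatty acyl groups, measured 14.86, 14.71 and 14.79 with high fructose and 14.02, 14.38 and 14.45 in the controls. The high-fructose arrays were all higher and it rose to 142% of control, 95% interval 115 to 175%, adjusted p = 0.032. Abcd3 did not pass without control array 1 or high-fructose array 1 or 3. Crot, which makes carnitine esters of medium-chain acyl groups in peroxisomes, measured 12.70, 12.78 and 12.53 with high fructose and 13.37, 13.62 and 13.31 in the controls. All were lower with high fructose, and Crot fell to 59.0% of control, 95% interval 45.7 to 76.1%, adjusted p = 0.0075. Cyp4a14, an omega-hydroxylase, had the widest spread, with 10.13, 7.00 and 8.39 with high fructose and 6.03, 8.26 and 3.79 in the controls. The groups overlapped (558% of control, adjusted p = 0.16).

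The mitochondrial respiratory chain had many small positive differences. Of 68 detected subunit and assembly genes, 6 rose (8.82%, against 1.22% of all detected genes) and 0 fell, 62 had a positive difference, and the median was 0.15. In 29 of the 68, all high-fructose arrays were above all control arrays, against 9.76% of detected genes. Cyc1, cytochrome c1 of complex III, measured 12.84, 12.66 and 12.84 with high fructose and 12.28, 12.42 and 12.36 in the controls. It rose to 135% of control, 95% interval 118 to 153%, adjusted p = 0.003 with no overlap. Ndufa12, of complex I, measured 13.12, 13.03 and 13.30 with high fructose and 12.78, 12.78 and 12.68 in the controls and rose to 133% of control, 95% interval 117 to 151%, adjusted p = 0.0045, and its 3 probe sets differed by 0.32 to 0.46. Ndufb8 and Uqcr10, of complexes I and III, rose to 134% of control, adjusted p = 0.03 and 129% of control, adjusted p = 0.03, both calls lost without control array 2 or high-fructose array 3 and that of Ndufb8 also without control array 1, that of Uqcr10 also without control array 3, and the others past the test were Cox5b and Atp5a1. High-fructose array 3 had the highest mean over the list, 12.62, against 12.46 and 12.48 in the other 2 and 12.37 to 12.38 in the controls. Without high-fructose array 3 the count was 3 and the median 0.08, and with arrays centred on their medians it was 12. Of 18 detected citrate cycle genes, 0 passed the test.

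**Figure D3:**
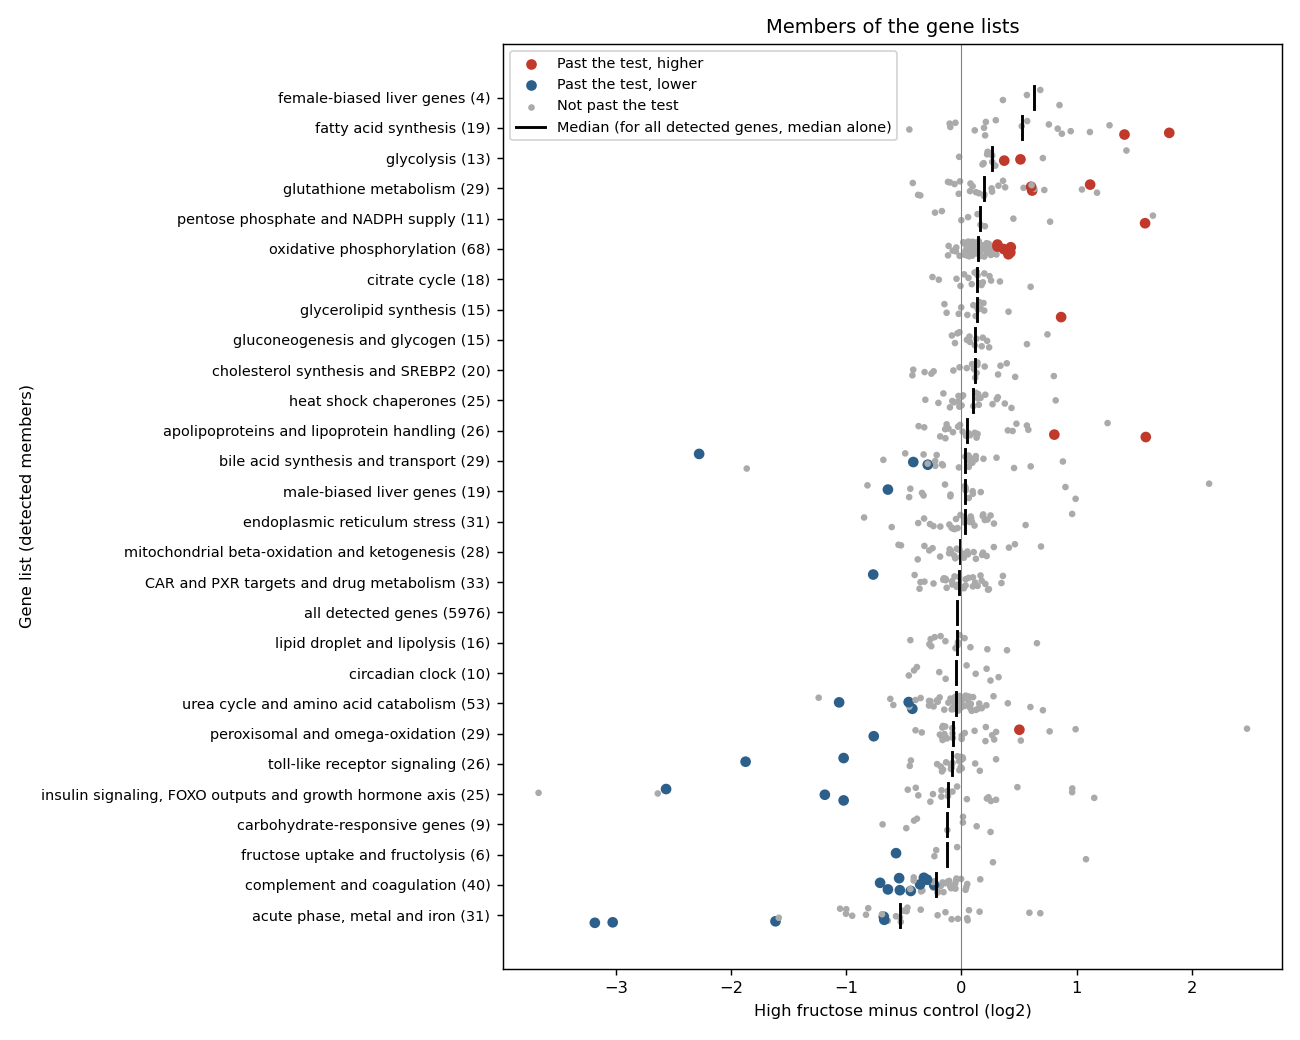
Difference between high fructose and control (log2, x axis) of every detected member of 27 gene lists, ordered by median, with the number of detected members in brackets. Large red and blue points are genes past the test, small grey points are not, black lines are medians, and the row for all detected genes shows its median of -0.04 alone. Fatty acid synthesis has a median of 0.52 and the acute phase list -0.53.

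Glutathione metabolism and retinoid breakdown also held genes that rose. Of 29 detected glutathione genes, 3 rose (10.3%, against 1.22% of all detected genes) and 0 fell, with a median of 0.20. Gstt3, a theta-class glutathione transferase, measured 8.09, 8.05 and 8.15 with high fructose and 6.46, 7.20 and 7.28 in the controls. No high-fructose array overlapped, and Gstt3 rose to 217% of control, 95% interval 145 to 325%, adjusted p = 0.013. Gstm1 rose to 153% of control, 95% interval 118 to 199%, adjusted p = 0.035 and Gsto1 to 152% of control, 95% interval 120.1 to 192%, adjusted p = 0.021, and the members of the mu class are similar in sequence, so that their signals may be shared. For all 3 genes the control mean was the lowest of the 9 diets. Gclc, the catalytic subunit of glutathione synthesis, was at 114% of control, adjusted p = 0.56, and its 2 probe sets differed in opposite directions, by -0.18 and 0.57. Gstt3 did not pass without control array 1, Gsto1 without control array 3 or high-fructose array 1 or 3, and Gstm1 passed without high-fructose array 2 and in no other such fit. Cyp26a1, the retinoic acid hydroxylase, had the largest increase of all genes past the test. It measured 7.69, 8.53 and 10.27 with high fructose and 4.36, 7.42 and 5.59 in the controls. The lowest high-fructose array was just above the highest control array, 2 of 3 controls were below the detection level, and the mean rose to 823% of control, 95% interval 294 to 2304%, adjusted p = 0.0082. Its control mean too was the lowest of the 9 diets and its high-fructose mean the third highest. Without control array 1 or high-fructose array 3, Cyp26a1 did not pass.

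Drug metabolism was counted by the list of the nuclear receptors CAR and PXR, and drug-metabolizing genes outside it were not counted. Of 33 detected targets and partners of the nuclear receptors CAR and PXR, 0 rose and 1 fell (3.03%, near the 2.81% of all detected genes). This was Nr1i3, which encodes CAR, and measured 7.07, 7.24 and 6.93 with high fructose and 7.79, 8.12 and 7.62 in the controls. All high-fructose arrays were lower, at 58.8% of control, 95% interval 44.0 to 78.6%, adjusted p = 0.018. The call was lost without control array 2 or high-fructose array 3. Aox3, an aldehyde oxidase outside that list, measured 10.30, 10.76 and 9.65 with high fructose and 12.44, 11.81 and 11.88 in the controls. It fell to 28.6% of control, 95% interval 17.7 to 46.2%, adjusted p = 0.001 with no overlap.

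Acute phase genes had the 2 largest decreases among genes past the test. Of 31 detected acute phase, metal and iron genes, 0 rose and 5 fell (16.1%, against 2.81% of all detected genes), with a median of -0.53. Saa1 and Saa2 encode the serum amyloid A proteins that appear in plasma in inflammation. Saa1 measured 9.87, 9.76 and 9.36 with high fructose and 13.51, 11.13 and 13.89 in the controls. The high-fructose arrays were close together and below all controls, of which array 2 was the lowest, and Saa1 fell to 11.01% of control, 95% interval 3.32 to 36.5%, adjusted p = 0.017. Saa2 measured 8.03, 8.00 and 8.22 with high fructose and 11.68, 9.33 and 12.32 in the controls, in the same order, and fell to 12.3% of control, 95% interval 3.32 to 45.3%, adjusted p = 0.037. The 2 genes are near-identical copies whose probe sets can share signal, so they are not separate measurements. Saa1 did not pass without control array 1 or 3. Saa2 passed without control array 2 and in no other fit that left out 1 array. Saa4, the constitutive member of the family, measured 7.69, 8.31 and 6.91 with high fructose and 9.07, 9.25 and 9.43 in the controls. It was lower in all high-fructose arrays, at 32.7% of control, 95% interval 18.4 to 57.9%, adjusted p = 0.011, a call lost without high-fructose array 3.

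Hp and Itih4, abundant plasma proteins of the list, fell less but with a narrow spread. Hp, haptoglobin, which binds free haemoglobin, measured 14.28, 14.34 and 14.07 with high fructose and 14.88, 14.83 and 15.00 in the controls. It fell to 62.8% of control, 95% interval 48.1 to 82.1%, adjusted p = 0.024 with no overlap. Itih4, an inter-alpha-trypsin inhibitor chain, measured 13.68, 13.68 and 13.74 with high fructose and 14.30, 14.26 and 14.57 in the controls, and fell to 62.7% of control, 95% interval 48.6 to 80.7%, adjusted p = 0.017. Hamp, hepcidin, which limits iron release, measured 12.35, 13.80 and 12.69 with high fructose and 13.91, 14.06 and 13.88 in the controls. High-fructose array 2 was close to the controls, and the difference, 49.9% of control, adjusted p = 0.13, did not pass. Apcs, serum amyloid P, was at 64.2% of control, adjusted p = 0.37, Lcn2, lipocalin 2, at 33.3% of control, adjusted p = 0.53 and Saa3 at 69.4% of control, adjusted p = 0.65. Hpx, Orm1, Orm2 and Crp, plasma proteins of the list named after their values were seen, differed by -0.09 to 0.05 and did not pass. Hp did not pass without control array 1 or 3 or high-fructose array 3, nor Itih4 without control array 3. The number of genes of this list past the test was 1 without control array 3, 2 without control array 1 or high-fructose array 3, and 4 or 5 without any 1 of the others.

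Complement and coagulation held 9 genes that fell, all by less than the serum amyloid A genes. Of 40 detected genes, 0 rose and 9 fell (22.5%, against 2.81% of all detected genes), 36 had a negative difference, and the median was -0.22. In 20 of the 40 all high-fructose arrays were below all controls, against 15.6% of detected genes. F11, coagulation factor XI, measured 9.08, 9.20 and 8.77 with high fructose and 9.96, 9.58 and 9.63 in the controls. The groups did not overlap and F11 fell to 61.3% of control, 95% interval 45.6 to 82.3%, adjusted p = 0.031. C8a, a chain of the complement membrane attack complex, measured 13.43, 13.23 and 12.94 with high fructose and 13.98, 13.64 and 13.89 in the controls, and fell to 64.2% of control, 95% interval 50.6 to 81.6%, adjusted p = 0.016. Hc, complement component 5, measured 13.41, 13.41 and 13.23 with high fructose and 13.84, 13.74 and 14.08 in the controls, and fell to 69.0% of control, 95% interval 55.1 to 86.5%, adjusted p = 0.033. Serpinf2, the inhibitor of plasmin, fell to 68.7% of control, adjusted p = 0.017, and the others past the test were C1s1, F5, Proc, Plg and F2. Control array 3 had the highest list mean, 12.41, against 12.35 and 12.26 in the other controls and 12.07 to 12.15 with high fructose. The count was 1 without control array 3 or high-fructose array 1, 2 without control array 1 or high-fructose array 3, and 3 with arrays centred on their medians. With 1 array left out, Hc passed only without control array 2, and F11 only without control array 2 or high-fructose array 2. C8a did not pass without control array 1 or 3 or high-fructose array 3, nor Serpinf2 without control array 3 or high-fructose array 1.

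Fgl1, a fibrinogen-related hepatokine outside these lists, measured 11.46, 11.41 and 11.42 with high fructose and 12.92, 13.04 and 13.90 in the controls. The 3 high-fructose values were nearly equal and lay below all 24 other arrays of the series, and Fgl1 fell to 27.6% of control, 95% interval 11.9 to 64.0%, adjusted p = 0.047. It did not pass in any fit that left out 1 array. Markers of Kupffer cells, the liver macrophages, had negative differences that did not pass the test. The difference was negative for all 10 detected of 14 on the array, where it was for 57.1% of all detected genes. The 10 markers had a median of -0.27, and 0 had an unadjusted p below 0.05 in limma. Their summed signal was 2607 to 4091 with high fructose and 3499 to 4778 in the controls, and the groups overlapped. The lowest markers were Marco, at 2.32 or less in every array, and Timd4, at 3.16 or less. The part of these cells in the results above was not tested. Of the other markers, 0 of 10 detected for sinusoidal endothelium and 0 of 9 for stellate cells passed the test.

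**Figure D4:**
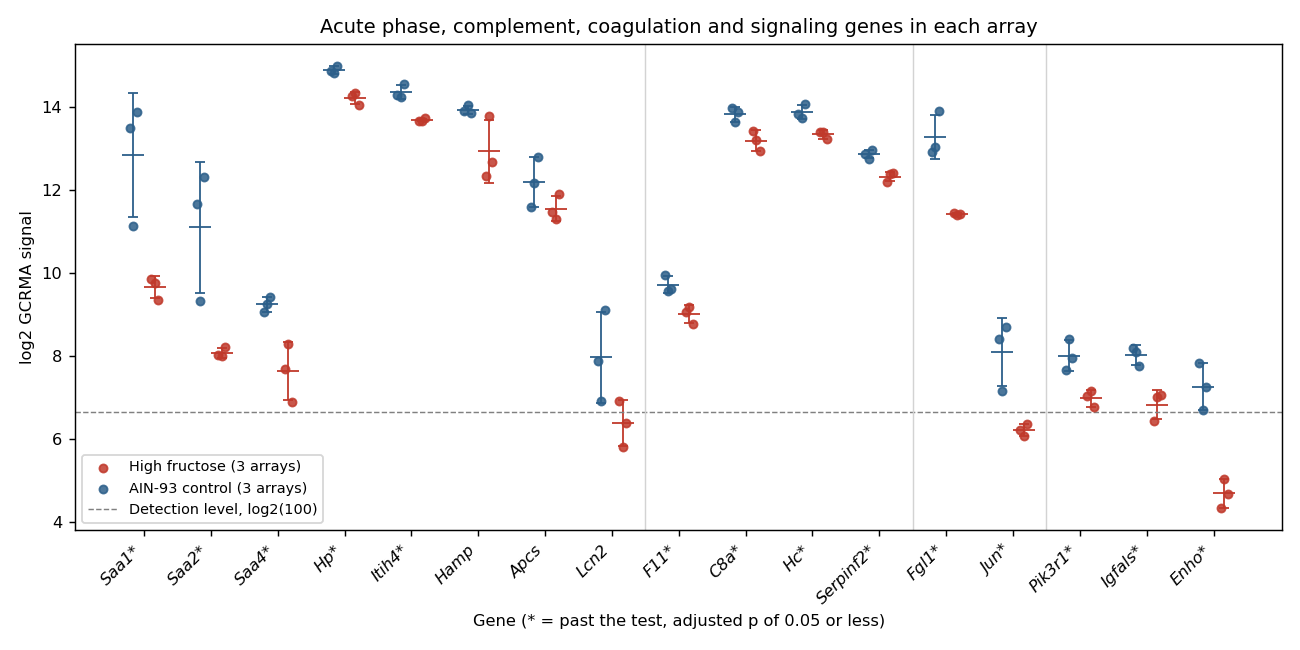
Log2 GCRMA signal of 17 acute phase, complement, coagulation and signaling genes, with a point for each of the 3 high-fructose arrays (red) and 3 control arrays (blue), a bar at the group mean and error bars of 1 SD. The red points lie below the blue ones for Saa1, Saa2, Fgl1 and Jun, where the controls are spread widely for Saa1 and Saa2, and Hp and Itih4 show a smaller gap with a narrow spread.

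Of 26 detected genes of toll-like receptor signaling, 0 rose and 2 fell (7.69%, against 2.81% of all detected genes). Jun, a subunit of the AP-1 transcription factor, measured 6.21, 6.08 and 6.36 with high fructose and 8.42, 7.16 and 8.70 in the controls. All high-fructose arrays were below the detection level and below all 24 other arrays, at least 2.73-fold lower than control (adjusted p = 0.014), and Jun did not pass without control array 1 or 3. Pik3r1, the regulatory subunit of phosphoinositide 3-kinase, measured 7.03, 7.17 and 6.76 with high fructose and 7.68, 8.41 and 7.95 in the controls. It too lay below all 24 other arrays and fell to 49.2% of control, 95% interval 35.5 to 68.2%, adjusted p = 0.0052.

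Pik3r1 was also 1 of 3 genes that fell among 25 detected genes of insulin, FOXO and growth hormone signaling (12%, against 2.81% of all detected genes), where 0 rose. Enho encodes adropin, a secreted peptide. It measured 4.35, 5.05 and 4.68 with high fructose and 7.83, 6.70 and 7.25 in the controls, which placed all high-fructose arrays below the detection level, at least 1.53-fold lower (adjusted p = 0.039). Igfals, the acid-labile subunit that holds IGF-I in plasma complexes, measured 6.44, 7.01 and 7.06 with high fructose and 8.21, 8.10 and 7.75 in the controls. It fell to 43.9% of control, 95% interval 25.9 to 74.6%, adjusted p = 0.044 with no overlap. Neither Enho nor Igfals passed in any fit that left out 1 array. Cish and Socs2, targets of growth hormone signaling through STAT5, were named after their values were seen. Cish measured 5.95, 3.58 and 2.74 with high fructose and 8.78, 5.78 and 8.73 in the controls. Control array 2 was below high-fructose array 1, so the groups overlapped. All high-fructose arrays were below the detection level, and the control mean was 2.17-fold over that level. Cish did not pass the test (adjusted p = 0.13). Socs2 measured 4.96, 6.23 and 5.64 with high fructose and 9.46, 7.70 and 7.59 in the controls. All high-fructose arrays were below the detection level and below all controls, at least 3.04-fold lower, and Socs2 did not pass (adjusted p = 0.16). The male-biased liver genes held 1 decrease, C8a, among 19 detected (5.26%, against 2.81% of all detected genes). Of 4 detected female-biased genes, 0 passed the test.

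Amino acid catabolism had 3 decreases among 53 detected genes (5.66%, against 2.81% of all detected genes) and 0 increases. Agxt, the peroxisomal alanine-glyoxylate aminotransferase, measured 10.72, 11.17 and 10.71 with high fructose and 12.20, 11.82 and 11.76 in the controls. Every high-fructose array was lower, and Agxt fell to 47.9% of control, 95% interval 29.5 to 77.8%, adjusted p = 0.049. Agxt2, its mitochondrial relative, fell to 72.8% of control, 95% interval 60.1 to 88.2%, adjusted p = 0.032. Glud1, glutamate dehydrogenase, measured 13.04, 13.15 and 12.81 with high fructose and 13.48, 13.37 and 13.43 in the controls, and fell to 74.4% of control, 95% interval 64.4 to 86.0%, adjusted p = 0.0082. Without high-fructose array 3 none of the 3 passed, and Agxt and Agxt2 also did not without control array 1, control array 2 or high-fructose array 1, nor Agxt without control array 3.

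Of the 27 lists, 10 held 0 genes past the test in limma. At an unadjusted p below 0.05 they held 5 of 28 genes of mitochondrial beta-oxidation, 5 of 18 of the citrate cycle, 3 of 31 of endoplasmic reticulum stress, 2 of 25 heat shock chaperones and 1 each of lipid droplets, cholesterol synthesis and female-biased genes. The circadian clock (10 detected), gluconeogenesis and glycogen (15) and carbohydrate-responsive (9) lists held 0 at that level too. By Dunnett's test, which does not adjust over genes, 1 citrate cycle gene passed and 0 of the other 9 lists.

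Of the 241 genes past the test, 196 belonged to none of the 27 lists, and several of the largest differences were among them. Srsf5, a splicing factor rich in serine and arginine, measured 7.58, 8.17 and 7.78 with high fructose and 9.27, 9.57 and 9.77 in the controls. Its high-fructose arrays lay below all 24 other arrays, and it fell to 30.8% of control, 95% interval 21.4 to 44.4%, adjusted p = 0.0001. After this value was seen, the genes whose symbols begin with Srsf or Hnrnp, which encode RNA-binding proteins of splicing, were counted. All 9 detected Srsf genes had a negative difference (median -0.29) and 2 fell, Srsf5 and Srsf11 (67.9% of control, adjusted p = 0.029), where 57.1% of all detected genes had a negative difference and 2.81% fell. Of 19 detected Hnrnp genes, 17 were negative (median -0.21) and 1 fell, Hnrnpa2b1 (67.0% of control, adjusted p = 0.038). Csrp3, a LIM protein best known from muscle, measured 6.56, 6.97 and 7.51 with high fructose and 8.40, 8.91 and 8.65 in the controls. It fell to 32.1% of control, 95% interval 22.3 to 46.3%, adjusted p = 0.00017 with no overlap.

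Adgrv1, an adhesion receptor, measured 4.76, 5.12 and 4.34 with high fructose and 7.28, 7.45 and 6.70 in the controls. High-fructose arrays were all below the detection level, at least 1.41-fold lower, with the smallest adjusted p of the named genes, 3.8e-05. Hectd2os, an antisense transcript at the Hectd2 locus, measured 6.47, 6.83 and 5.81 with high fructose and 9.07, 8.99 and 7.98 in the controls, and fell to 20.1% of control, 95% interval 11.3 to 35.8%, adjusted p = 0.00054. B3galt1, a galactosyltransferase, fell below the detection level in all high-fructose arrays, at least 1.33-fold lower (adjusted p = 0.044), and did not pass in any fit that left out 1 array. Among increases outside the lists, Crkl, a signaling adaptor, measured 8.08, 7.87 and 8.04 with high fructose and 7.30, 6.85 and 7.30 in the controls. It rose to 180.0% of control, 95% interval 149 to 218%, adjusted p = 0.00017. Pgrmc2, a haem-binding membrane protein, measured 8.96, 8.74 and 9.21 with high fructose and 7.84, 8.32 and 8.21 in the controls, and rose to 179% of control, 95% interval 138 to 233%, adjusted p = 0.0041. Mnt, a repressor that pairs with MAX, measured 7.05, 7.16 and 7.23 with high fructose and 6.44, 5.92 and 6.13 in the controls. All controls were below the detection level, and the increase was at least 1.42-fold (adjusted p = 0.009), a call lost without control array 2. Cela1, the 1 detected gene of 7 pancreatic acinar markers, fell to 51.9% of control, adjusted p = 0.015, while the other 6 were at 2.60 or less in all 6 arrays, and Cela1 did not pass without control array 1 or high-fructose array 3.

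Set against all 9 diets, high fructose had the highest mean for 39 of the 73 genes that rose (53.4%) and the lowest for 100 of the 168 that fell (59.5%). Over all detected genes with a difference of that sign, these shares were 18.9% and 20.1%. The control mean was the lowest of the 9 for 16 of the 73 (21.9%) and the highest for 29 of the 168 (17.3%), against 8.55% and 9.55% over all detected genes with a difference of that sign. Genes past the test were picked by the difference between these same high-fructose and control arrays, which by itself raises such shares. They therefore do not show that the differences are particular to high fructose. All 3 high-fructose arrays lay outside the range of the other 24 arrays for 13 genes past the test, 5 above and 8 below. Over all 5976 detected genes the counts were 20 above and 11 below. Acaca averaged 11.06 with high fructose, 10.36 with the EFA-deficient diet, which is rich in sucrose and lacks essential fatty acids, and 9.25 in the controls, and the other 6 diets averaged 7.42 to 8.67. The 3 EFA-deficient arrays ranged from 8.66 to 11.78, wide enough to overlap both neighbours. Saa1 averaged 9.66 with high fructose, which was above diet restriction, 7.81, and below the other 7 diets.

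The EFA-deficient diet was the diet most like high fructose in its sugar, and both were compared directly in the same limma fit. Of the 5976 genes, 193 (3.23%) passed the test at an adjusted p of 0.05 within this contrast, 46 (0.77%) higher and 147 (2.46%) lower with high fructose. The contrast shares the high-fructose arrays with the comparison above. The lipid genes did not pass it, with differences on the log2 scale of 0.70 for Acaca (95% interval -0.43 to 1.82), -0.05 for Acly (-0.93 to 0.83), -0.19 for Gpam (-0.75 to 0.36) and -1.02 for Apoa4 (-1.79 to -0.24). Nor did Saa1, at -1.68 (-3.41 to 0.05). These intervals are wide and do not show that both diets act alike. Srsf5 was lower with high fructose than with the EFA-deficient diet, by -1.57 (adjusted p = 0.0038), as was Hnrnpa2b1, by -0.89 (adjusted p = 0.011). Sfpq, named after its values were seen, was lower by -0.70 (adjusted p = 0.0098). Against the controls Sfpq was at 74.9% (adjusted p = 0.044), but its 5 probe sets differed by -1.11 to 0.23, not all in the same direction. Ndufa12 was higher with high fructose than with the EFA-deficient diet, by 0.43 (adjusted p = 0.012).

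**Figure D5:**
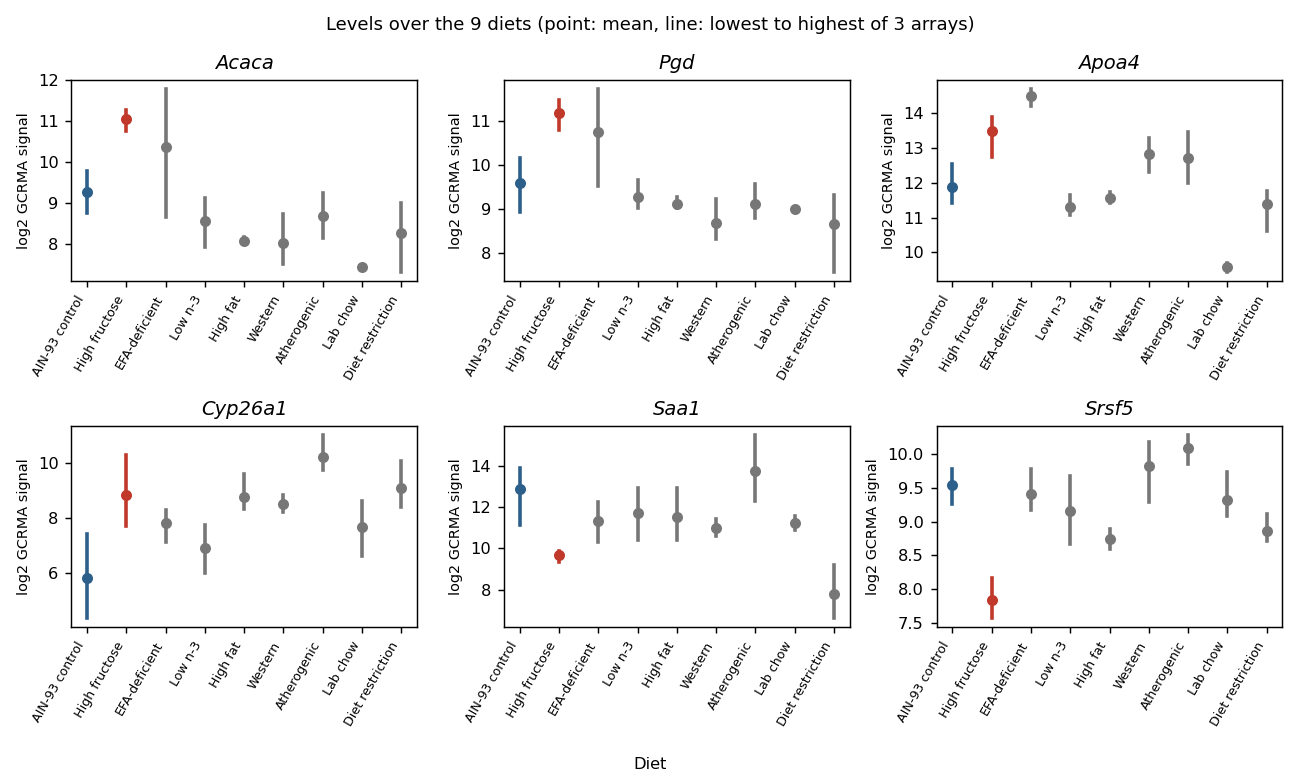
Log2 GCRMA signal (y axis) of Acaca, Pgd, Apoa4, Cyp26a1, Saa1 and Srsf5 over the 9 diets, as the mean (point) and the lowest to highest of 3 arrays (line), with the controls in blue and high fructose in red. The arrays shown as low n-3 are described as a sunflower oil diet but titled as supplemented with DHA. High fructose has the highest mean for Acaca and Pgd and the lowest for Srsf5, and the control mean is the lowest for Cyp26a1.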

How the data were processed

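Liver RNA of 27 mice (9 diets, 3 arrays each) was labelled with biotin and hybridised to Affymetrix mouse expression arrays. The deposited values are log2 signals of 45101 probe sets that the authors made with GCRMA in R, which corrects background, quantile-normalizes and summarizes probes over all arrays together. Tool versions and any scan or batch order are not given in the sources used here. Platform annotation gave 1 gene symbol to 34958 probe sets, several to 932 and none to 9211. Following the study's methods, 10582 probe sets whose mean exceeded log2(100) with any diet went into the tests, of which 9523 had 1 symbol. Those of the same gene were averaged.

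Differences were tested with limma 3.58.1 (R 4.3.3) over all 27 arrays with diet as the factor, and moderated p-values were adjusted by Benjamini-Hochberg over 6478 genes and 8 diets together, which put the limit at an unadjusted p of 0.00483. Percent of control is 2 to the power of the difference, with its 95% interval from the same fit. For a group with no array above log2(100), the difference is given as a bound, the other group's mean over that level. The script was tested on simulated data. The precision is limited by 3 mice per diet, each with its own array.

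Genes named are the 12 largest increases and decreases among those past the test with no overlap between groups, up to 4 genes past the test per list (all where a list holds 5 or fewer), and a fixed set of sugar, lipid and bile acid genes. List members that did not pass the test and are not in the fixed set, and genes given with Srsf5, were chosen after their values were seen. The members, gene lists and fixed set were chosen with earlier results of these data known, and no list was tested as a set. Alternatives were Dunnett's test, array weights, centring, quantile normalization, other filters, probe sets or adjustments, a replicate block, a fit of the 6 arrays alone, and leaving out each array. Each list was recounted under every alternative, a choice made after seeing the data. Promoter sequences came from RefSeq (GRCm38.p6), and genes were matched by symbol.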

Additional observations from a re-analysis of the deposited data

Results flagged for a closer look

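Probe sets with several gene symbols or none were outside the gene values. Of 919 such probe sets detected in either group, 52 (5.66%) passed the same test at the probe set level, 25 higher and 27 lower with high fructose. The largest increases with no overlap between groups, both for probe sets without a symbol here, differed from control by 1.19 on the log2 scale (adjusted p = 0.0038) and by 1.12 (adjusted p = 0.025). The largest decreases, -1.83 (adjusted p = 0.005) and -1.78 (adjusted p = 0.0058), were those of the array's own 18S rRNA probe sets. Of 48 control probe sets of the array detected here, 3 passed the test, all for 18S rRNA.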

How the results depend on the processing

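The number of genes past the test, 241, stayed within 1.5 times of that value under Dunnett's test (329, all 241 included), centring (232), quantile normalization (247), the mean of all probe sets (206), the probe set with the highest mean (237), a filter at log2(200) (230) and a trended robust prior (255). It moved to 606 with array weights, 89 with no filter on low signal, which adjusts over more genes, 36 with adjustment within the comparison, 2 in a fit of the 6 arrays alone and 407 when probe sets were tested in place of genes. Leaving out 1 array gave 107 to 283 genes. The count was 107 without high-fructose array 3, 125 without control array 1 or control array 3, 131 without high-fructose array 1 and 159 without control array 2, and these fits hold fewer arrays. Of the 51 genes named by rule and past the test, 14 passed with adjustment within the comparison, 27 without the filter, 0 in the fit of the 6 arrays alone and 22 to 42 without 1 array, and 4 of the 51 passed in none of the fits without 1 array.

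The labels number the mice of every diet but do not say that the numbers pair them. Same-numbered arrays of the 2 groups correlated in their deviations from the group means by 0.02, -0.0005 and 0.26. Arrays with different numbers correlated by -0.22 to 0.16. With 3 arrays per group these values cannot decide whether the numbers pair the mice. With the replicate number as a block, 251 genes passed, 221 of them among the 241. Srebf1, which did not pass the test, turned from -0.05 to 0.010 with arrays centred on their medians and ranged from -0.26 to 0.079 without 1 array at a time. G6pc ranged from -0.16 to 0.48 without 1 array at a time, and was negative without control array 1. No other named gene changed direction.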
